A study of Mus musculus with 6 samples.

Results

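The mitosis genes described here are 42 genes that act from the G2 phase to the separation of daughter cells: G2/M cyclins and their kinase and phosphatases, mitotic kinases, spindle checkpoint and centromere proteins, kinesins and other spindle proteins, and the machinery of anaphase and cytokinesis. They were chosen by gene name and role, with earlier results of these data known. Of the 42, 41 were measured, among 14906 genes tested, and all 41 were well above background on all 6 arrays. The only probe of Aurkb, the kinase of the chromosomal passenger complex, was not well above background on any array, so it has no value here.

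RNA was measured on Agilent one-colour arrays in mouse heads of embryonic day 9.5, dissected with the first branchial arch attached. There were 3 wild type samples and 3 Arid3b-null samples, each of which pooled the heads of 4 embryos. Arid3b encodes a DNA-binding protein of the ARID family. The labels name neither the allele nor the litters, and the samples of a group are pools, so the p-values measure the spread between pools. A head at this stage is a mixture of neural, mesenchymal, ectodermal, endothelial and blood cells, and in such bulk RNA fewer cells of a type and less RNA per cell cannot be told apart.

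Cells enter mitosis when cyclin B and Cdk1, released from inhibition by Cdc25 phosphatases, phosphorylate their substrates. Aurora and Polo kinases and kinesins then build the spindle, and the checkpoint holds back the anaphase-promoting complex until every kinetochore is attached. Most of these genes are transcribed in G2 and M phase, later in the cycle than the E2F-driven genes of DNA replication, and many carry a CHR element, the DNA sequence through which the DREAM and MuvB complexes act, near their start.

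The letters of that element stood in most of the mitosis promoters available. In RefSeq promoters of the mouse build GRCm38.p6, which run from 250 bases before to 50 after each gene's start, the letters TTTGAA of the CHR element were searched on both strands. Of the 36 mitosis genes with a promoter in the table, 26 (72.2%) held them, against 14.4% of the 11818 tested genes with a promoter and 20.2% of all 27025 genes in the table. In 24 of the 36 (66.7%) a match began within 50 bases of the start, against 4.0% of tested genes. Of 50 genes of DNA replication and S phase with a promoter, 9 (18%) held the letters anywhere in the window. The variant TTTAAA was present in 9 mitosis genes (25%; 11.4% of tested genes). The letters CCAAT, bound by NF-Y, stood in 27 (75%; 60.0% of replication genes, 42.7% of tested genes). The E2F-type letters TTNNCGC stood in 15 (41.7%), below the 76.0% of replication genes and near the 34.5% of tested genes. All 4 were searched on both strands, and matches to different motifs can overlap by some letters. Such a match is a description of the letters and not a site of binding.

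The 120 bases before the start are shown for 4 mitosis genes with the CHR letters in that stretch, for Ttk, Anln and Birc5, which the values below turn on and which lack the letters there, and for 1 replication gene, Rrm2. They are written 5′ to 3′ along the gene, with the matches to the CHR element (TTTGAA, or TTCAAA on the other strand) and to the CCAAT box (or ATTGG on the other strand) in capitals.
Cdc20 (chr4:118437344-118437463, - strand): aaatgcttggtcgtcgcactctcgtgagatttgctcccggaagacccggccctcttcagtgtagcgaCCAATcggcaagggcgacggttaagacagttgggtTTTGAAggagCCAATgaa
Top2a (chr11:99024190-99024309, - strand): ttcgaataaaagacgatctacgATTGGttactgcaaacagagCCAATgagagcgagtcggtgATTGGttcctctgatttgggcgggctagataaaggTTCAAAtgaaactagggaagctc
Kif11 (chr19:37376262-37376381, + strand): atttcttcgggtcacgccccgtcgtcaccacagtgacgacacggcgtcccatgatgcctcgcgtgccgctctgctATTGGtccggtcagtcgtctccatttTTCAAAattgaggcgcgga
Ube2c (chr2:164769809-164769928, + strand): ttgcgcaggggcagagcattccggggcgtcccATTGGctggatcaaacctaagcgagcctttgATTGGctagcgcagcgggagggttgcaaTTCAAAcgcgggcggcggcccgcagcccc
Ttk (chr9:83834569-83834688, + strand): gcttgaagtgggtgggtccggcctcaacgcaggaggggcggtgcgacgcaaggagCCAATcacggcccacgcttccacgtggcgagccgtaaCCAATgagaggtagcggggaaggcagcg
Anln (chr9:22389207-22389326, - strand): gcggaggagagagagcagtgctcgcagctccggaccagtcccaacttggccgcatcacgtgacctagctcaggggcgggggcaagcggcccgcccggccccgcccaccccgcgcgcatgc
Birc5 (chr11:117849117-117849236, + strand): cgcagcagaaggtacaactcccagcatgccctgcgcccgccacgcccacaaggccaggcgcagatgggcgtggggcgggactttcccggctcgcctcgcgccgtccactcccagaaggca
Rrm2 (chr12:24708134-24708253, + strand): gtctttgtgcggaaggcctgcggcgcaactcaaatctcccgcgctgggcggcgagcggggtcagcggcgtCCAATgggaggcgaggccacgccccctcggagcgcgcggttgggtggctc
In Cdc20 the CHR letters began 18 bases before the start with CCAAT boxes on either side. In Top2a they began 23 bases, in Kif11 19 bases and in Ube2c 29 bases before the start, downstream of 1 or more CCAAT boxes. In Ttk the stretch shows 2 CCAAT boxes, and the CHR match lay just beyond it, 7 bases after the start. The stretches of Anln and Birc5 hold neither motif. Rrm2 had a CCAAT box and no match to TTTGAA in its window, and the variant TTTAAA at its start.

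The arrays were even in quality: 67.9 to 70.3% of spots were well above background and none was saturated. Levels are given below as log2 of the processed signal minus the array's 75th percentile, and differences as Arid3b-null minus wild type on that log2 scale with the standard error of limma, n = 3 pools a group. Arid3b itself, which checks the labels, was at 1.98, 2.25 and 3.1 in wild type and 1.27, 1.06 and 1.43 in null pools, 2.28-fold lower without overlap (-1.19 ± 0.29, limma adjusted p = 0.0268) on its brightest probe. The difference was larger on the mean of its probes (-1.63, limma adjusted p = 0.00384) and on its probe of largest variance (-2.33, limma adjusted p = 0.000583). Whether these probes lie in the deleted part is not given in the labels. The call on the brightest probe was lost when any null pool was left out (adjusted p = 0.0696 to 0.0866), with no filter on dim probes (0.0602) and in the deposited value table (0.0580). Arrays of the same replicate number shared a slide, on which wild type RNA always took position 1 and null RNA position 2: an effect of array position cannot be told apart from one of genotype.

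The mitosis genes as a group stayed close to their wild type level. Of the 41 measured, 2 rose (4.88%; Ttk and Anln) and 0 fell at a limma adjusted p under 0.05. The corresponding shares over all 14906 genes were 12.3% higher and 11.3% lower, 23.5% in all. At an unadjusted p under 0.05, 3 were higher and 2 lower. The median difference of the 41 was 0.03, beside -0.04 over all genes, and 36 of them differed by less than 0.5. The differences ran from -0.53 to 0.82, 22 above 0 and 19 below, beside 6966 above and 7940 below over all genes. The 95% interval of the difference lay within 2-fold either way for 39 of the 41 (95.1%), all but Ttk and Espl1, against 65.2% of all genes, and within 1.5-fold for 19. The null and wild type values did not overlap for 5 genes on the low side (Cdc20, Birc5, Aurka, Mad2l1 and Bub3) and 5 on the high side (Anln, Cdc25b, Ttk, Nusap1 and Hmmr). Over all genes 42.3% did not overlap, 21.8% low and 20.5% high. Within the 3 slides the median difference was 0.01, 0.02 and 0.09. Without wild type replicate 3, 3 members were called lower (Birc5, Mad2l1 and Kif20a) and 4 higher, and with any array other than wild type replicate 3 and null replicate 2 left out none was called in either direction, in fits that called 1519 to 2177 genes; without null replicate 2, 1 (Ttk) was higher.

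**Figure D1:**
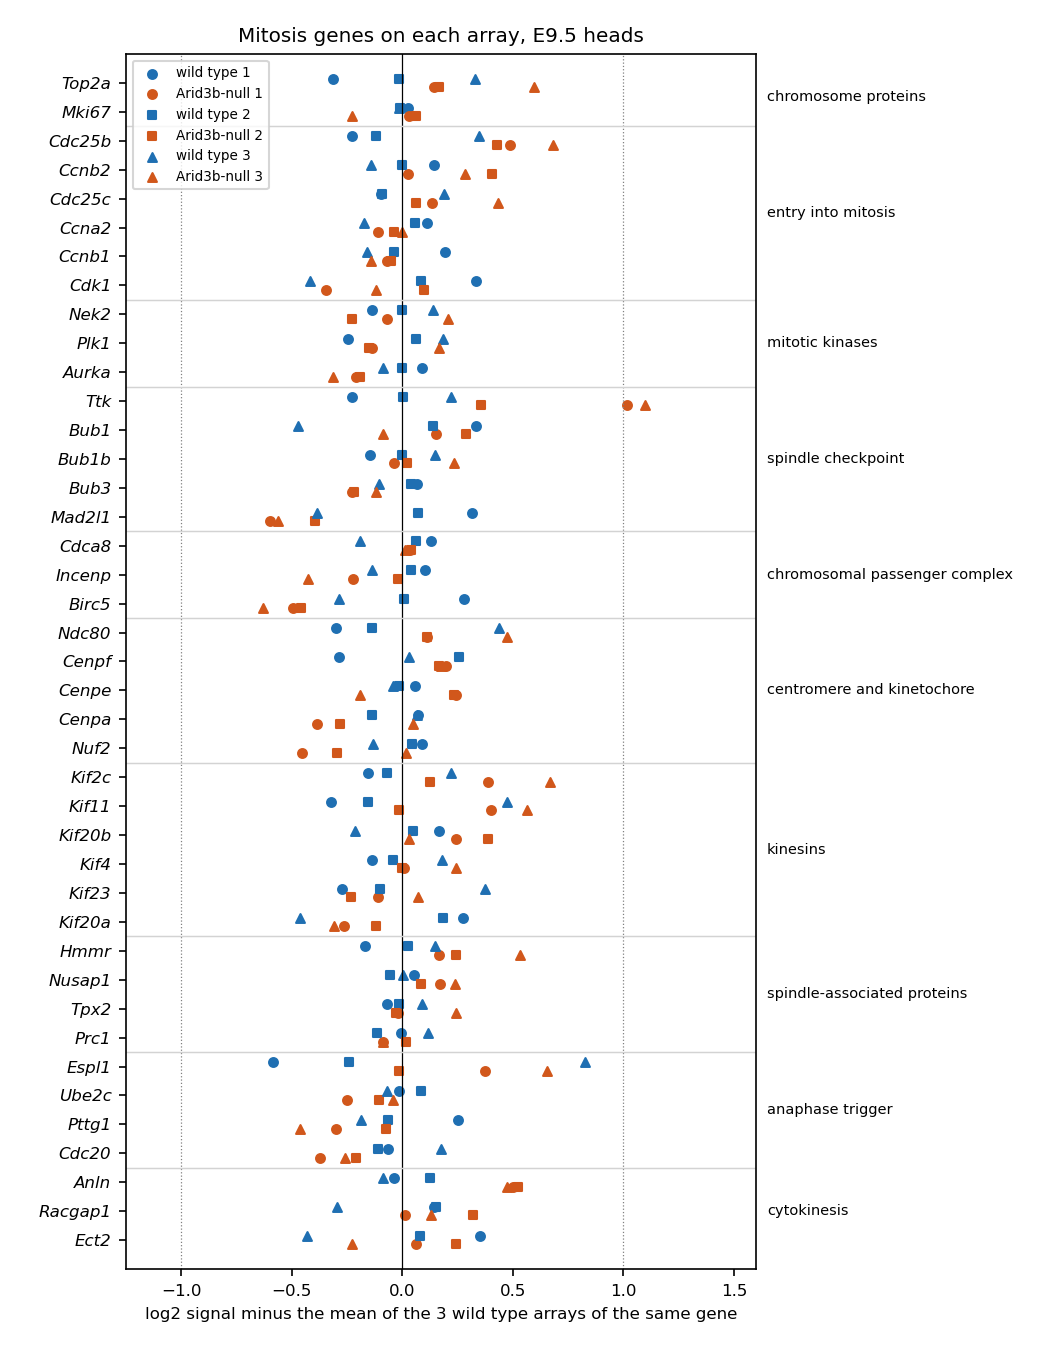
Level of each measured mitosis gene on each array, as log2 minus the mean of the gene's 3 wild type arrays (x axis), with wild type pools in blue and Arid3b-null pools in orange, 1 marker shape a replicate number, and genes (y axis) grouped by role. For 31 of the 41 genes the points of the 2 groups overlap. Ttk and Cdc25b have the largest mean shifts to higher values and Birc5 and Mad2l1 to lower ones.

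Of the genes that bring cells into mitosis, none of 6 passed the test. Ccnb1, the main mitotic cyclin, stood at 4.17, 3.94 and 3.82 in wild type and 3.91, 3.93 and 3.84 in null pools, a difference of -0.09 ± 0.14 (limma adjusted p = 0.698). All null values lay within the wild type range. Ccna2, the cyclin of S and G2 phase, differed by -0.05 ± 0.14, and Ccnb2 by 0.24 ± 0.16. The probe used for Cdk1, the kinase these cyclins activate, differed by -0.12 ± 0.22. Cdc25b, the phosphatase that starts Cdk1 activation at the centrosome, was at 1.51, 1.62 and 2.08 in wild type and 2.22, 2.17 and 2.42 in null pools. All 3 null pools were above all wild type pools. The difference of 0.53 ± 0.19 (1.45-fold) had a limma adjusted p = 0.0808, and 0.04996 with the slide as a block. Cdc25c, another Cdc25 phosphatase, differed by 0.21 ± 0.16.

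The proliferation antigen Mki67, which coats mitotic chromosomes, was at 4.58, 4.55 and 4.54 in wild type and 4.59, 4.62 and 4.33 in null pools. Only null replicate 3 lay away from the rest, and the difference was -0.05 ± 0.14 (limma adjusted p = 0.836), with a 95% interval from -0.37 to 0.27. Top2a, the topoisomerase that disentangles sister chromatids, was at 1.81, 2.11 and 2.45 in wild type and 2.27, 2.29 and 2.72 in null pools, and the groups overlapped (0.30 ± 0.21, limma adjusted p = 0.346).

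None of the 3 other mitotic kinases measured passed the test. Aurka, which matures centrosomes and the spindle, was at 3.69, 3.60 and 3.51 in wild type and 3.39, 3.41 and 3.29 in null pools. Every null pool was lower, by a difference of -0.24 ± 0.12 that missed the threshold (limma adjusted p = 0.213). Plk1, the Polo kinase, differed by -0.04 ± 0.17, and Nek2, which splits the centrosomes, by -0.03 ± 0.16. In the chromosomal passenger complex, which corrects kinetochore attachment, Birc5 (survivin) was at 5.30, 5.02 and 4.73 in wild type and 4.52, 4.56 and 4.39 in null pools. The null pools were all lower, with a difference of -0.53 ± 0.17 and a limma adjusted p = 0.068. The call turned to lower in 5 other settings at the same threshold, with adjusted p from 0.0092 to 0.0477. Incenp, the scaffold of the complex, differed by -0.22 ± 0.16 and Cdca8 (borealin) by 0.03 ± 0.14.

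In the spindle checkpoint 1 of 5 genes rose. Ttk (Mps1), the kinase at the top of the checkpoint, was at -2.99, -2.76 and -2.54 in wild type and -1.75, -2.41 and -1.67 in null pools. All null pools were higher, replicate 2 by the least. The rise was 1.77-fold (0.82 ± 0.23, limma adjusted p = 0.0435), and it was lost without wild type replicate 1 or 2 or null replicate 1 or 3 (adjusted p = 0.0971 to 0.149), with no filter (0.0885), in the deposited value table (0.0561) and after normexp correction, which reduced it to 0.51 (adjusted p = 0.0627). Mad2l1, which inhibits the anaphase-promoting complex, was at 2.76, 2.51 and 2.06 in wild type and 1.85, 2.05 and 1.88 in null pools on the probe used. The null pools lay just below wild type replicate 3 and further below the others, with a difference of -0.52 ± 0.20 and a limma adjusted p = 0.105. Of the other checkpoint proteins at the kinetochore, Bub3 differed by -0.19 ± 0.13, Bub1 by 0.12 ± 0.23 and Bub1b (BubR1) by 0.07 ± 0.15, none past the threshold.

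None of the 5 centromere and kinetochore genes passed. Cenpa, the histone H3 variant that marks centromeres, differed by -0.21 ± 0.16, the kinetochore motor Cenpe by 0.09 ± 0.16 and Cenpf by 0.18 ± 0.17. Ndc80 and Nuf2, partners in the complex that grips microtubules, differed by 0.23 ± 0.22 and -0.24 ± 0.16. None of the 6 kinesins passed. Kif11 (Eg5), which separates the spindle poles, was at 0.38, 0.54 and 1.17 in wild type and 1.10, 0.68 and 1.26 in null pools, with wild type replicate 3 among the null values (0.32 ± 0.25, limma adjusted p = 0.404). The microtubule depolymerase Kif2c differed most of the kinesins, by 0.39 ± 0.19 (limma adjusted p = 0.17). Kif4, which acts on chromosome arms, differed by 0.08 ± 0.15, Kif23 of the central spindle by -0.09 ± 0.20, Kif20a (MKLP2), which carries the passenger complex to the midzone, by -0.23 ± 0.21 and Kif20b by 0.22 ± 0.16. Of the 4 other spindle proteins none passed on the probe used: Hmmr, a microtubule-binding protein of the spindle, differed by 0.31 ± 0.16, Nusap1, which binds microtubules near chromosomes, by 0.16 ± 0.12, Tpx2, the activator of Aurka, by 0.06 ± 0.14 and Prc1, the bundler of midzone microtubules, by -0.05 ± 0.13.

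The 4 genes of the anaphase trigger did not pass. Cdc20, the checkpoint-controlled activator of the anaphase-promoting complex, was at 4.84, 4.80 and 5.08 in wild type and 4.54, 4.70 and 4.65 in null pools, without overlap (-0.28 ± 0.14, limma adjusted p = 0.188). Pttg1 (securin) differed by -0.28 ± 0.17 and Ube2c, the ubiquitin-conjugating enzyme of that complex, by -0.13 ± 0.13. Espl1 (separase), which cuts cohesin, was at 0.58, 0.93 and 2.0 in wild type, the one member whose wild type pools spread over more than 1 log2 unit, and at 1.54, 1.15 and 1.82 in null pools. Its difference of 0.34 ± 0.37 became 0.75 (limma adjusted p = 0.0435) without wild type replicate 3. In cytokinesis 1 of 3 genes rose. Anln (anillin), the scaffold of the contractile ring, was at 1.55, 1.72 and 1.51 in wild type and 2.10, 2.12 and 2.07 in null pools. The null pools were nearly equal and all above wild type, 1.41-fold (0.50 ± 0.13, limma adjusted p = 0.0302). The call was lost without any one array other than wild type replicate 3 (adjusted p = 0.0582 to 0.113) and with no filter (0.0644). Ect2 and Racgap1, which switch on RhoA at the midzone, differed by 0.03 ± 0.23 and 0.15 ± 0.18.

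**Figure D2:**
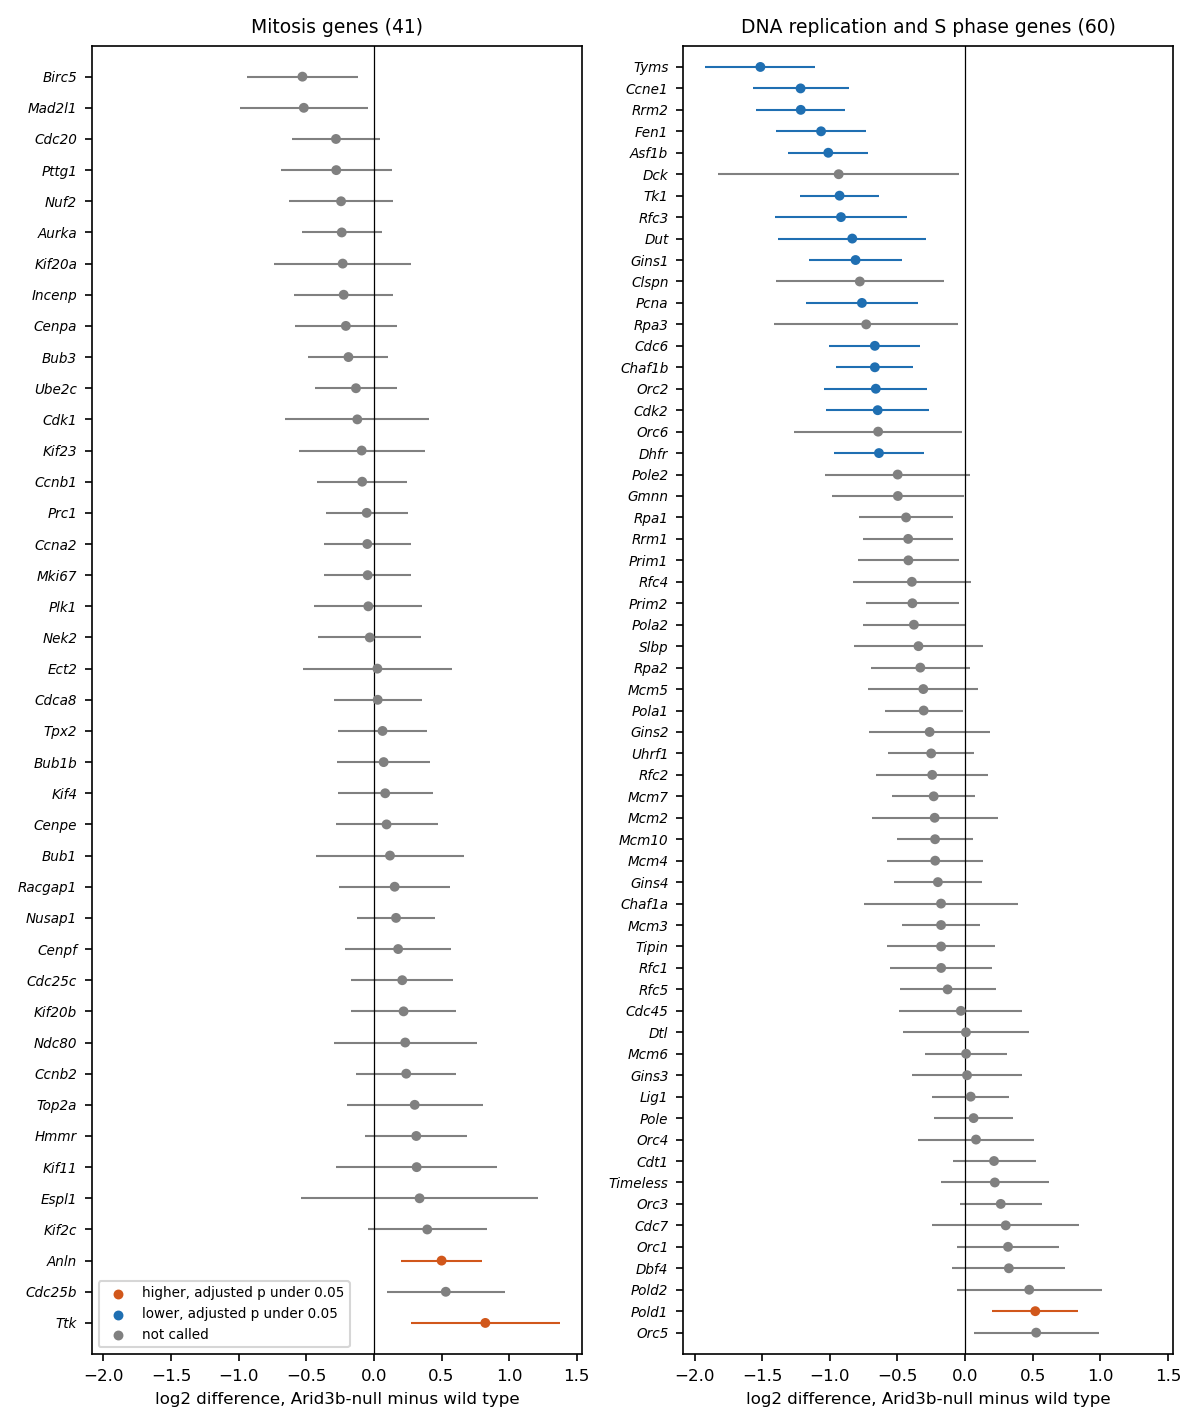
Arid3b-null minus wild type difference (log2) with 95% intervals for the 41 measured mitosis genes and for the 60 measured replication and S phase genes, in orange (higher) or blue (lower) where the limma adjusted p is under 0.05 and grey otherwise. Mitosis genes lie around 0 from -0.53 to 0.82 with 2 called higher, and replication genes reach -1.51 with 15 called lower.

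Wild type replicates 1 and 3 stood at opposite ends for most of the mitosis genes. Of the 41, replicate 3 was the highest wild type pool for 17 and the lowest for 21, replicate 1 the highest for 20 and the lowest for 16, and replicate 2 was highest or lowest for 4 each. The order was not counted over all genes, so whether it is particular to the mitosis genes was not tested. Top2a, Kif11, Espl1, Ndc80 and Kif23 were highest in replicate 3, while Bub1, Ect2, Cdk1, Kif20a and Birc5 were lowest there. These genes were chosen after their values were seen. The SD within a group had a median of 0.17 for wild type and 0.16 for null pools.

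For Tpx2, Cdk1, Nuf2 and Mad2l1 a dimmer probe was called lower where the brightest was not. Among genes with several kept probes, only Tpx2 and Mki67 had probes of opposite sign. Neither probe of Mki67 (-0.05 and 0.12) was called. Of 59 probes for the 42 genes 57 were kept, and 13 genes had more than 1. With every kept probe tested on its own, 5 member probes were lower and 2 higher (Ttk and Anln), where 10.6% and 11.7% of all 19652 single probes were lower and higher. None of the 5 lower probes was the brightest of its gene. Another probe of Tpx2 was at -1.72, -1.85 and -1.69 in wild type and -2.59, -2.49 and -2.48 in null pools (limma adjusted p = 0.0081), where the brightest probe showed no separation. Another probe of Cdk1 was at -2.78, -3.25 and -3.30 in wild type and -3.83, -3.80 and -4.19 in null pools (difference -0.83, limma adjusted p = 0.0248). The other probes of Mad2l1 fell by 0.97 and 0.72 (limma adjusted p = 0.0394 and 0.0242), the same direction as its brightest probe, and another probe of Nuf2 fell by 0.53 (limma adjusted p = 0.0375). The transcript each probe reads was not analysed here, so the difference between probes of 1 gene was not tested against isoforms. A direction for Tpx2 therefore depends on the probe: it was 0.06 on the brightest, -0.77 on the probe of largest variance and -0.83 in the deposited value table. Which Tpx2 probe the value table holds was not looked up, so the 2 lower values may come from 1 probe.

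**Figure D3:**
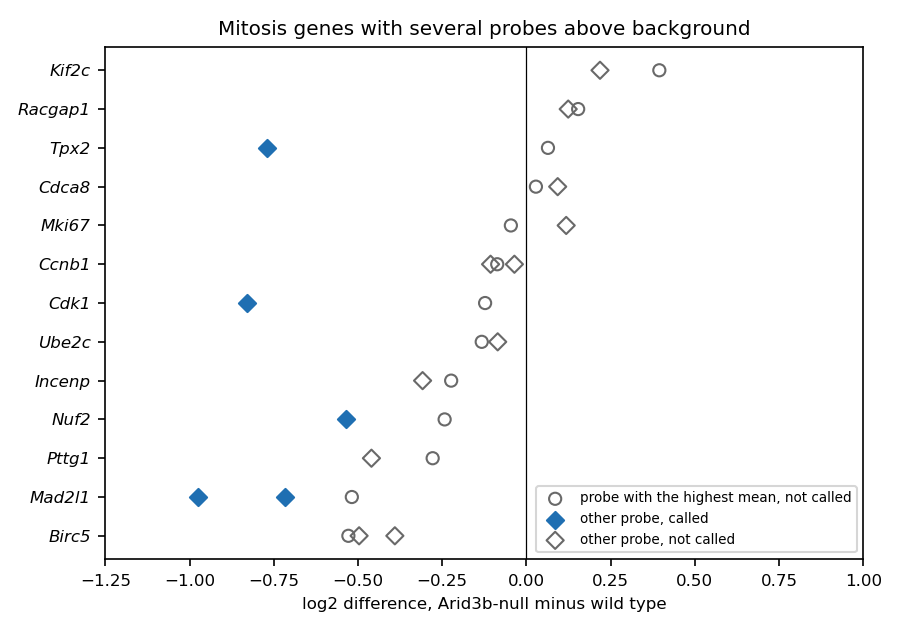
Arid3b-null minus wild type difference (log2) of every kept probe for the 13 mitosis genes with more than 1 probe, with circles for the brightest probe and diamonds for others, filled where the single-probe limma adjusted p is under 0.05. The called probes lie at or below -0.53 and belong to Tpx2, Cdk1, Nuf2 and Mad2l1.

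The genes of DNA replication and S phase, measured on the same arrays, fell more often. Of 60 measured among 61 listed, 15 (25%) were lower and 1 higher (the polymerase subunit Pold1, named after its value was seen), beside 0 and 2 of the 41 mitosis genes and 11.3% and 12.3% of all genes. The median difference was -0.31 for the replication genes and 0.03 for the mitosis genes. Within the 3 slides these medians were -0.39, -0.28 and -0.23 for replication genes and 0.01, 0.02 and 0.09 for mitosis genes. Tyms, which makes thymidylate, was at -1.50, -1.66 and -1.46 in wild type and -2.78, -3.32 and -3.06 in null pools. Its groups lay more than 1 log2 unit apart (-1.51 ± 0.17, limma adjusted p = 0.0025). Rrm2, the ribonucleotide reductase subunit whose promoter is shown above, fell by 1.22 ± 0.14 (limma adjusted p = 0.0026), and Ccne1, the cyclin of S phase entry, fell by 1.22 ± 0.15 (limma adjusted p = 0.0030). The fall did not reach the whole list. Mcm2 to Mcm7, named after their values were seen, were not called, at -0.31 (Mcm5) to 0.01 (Mcm6). Of the 60 genes 15 were above 0, beside 6966 of all 14906 genes. On the brightest probes the lowest mitosis gene, Birc5, was at -0.53, and over single probes the lowest was one of Mad2l1 at -0.97. The replication count moved from 7 without null replicate 1 to 23 without wild type replicate 3, and leaving out any single array moved it by over 1.5 times. The difference between the lists was not given a test of its own, since the lists were chosen with earlier results known.

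**Figure D4:**
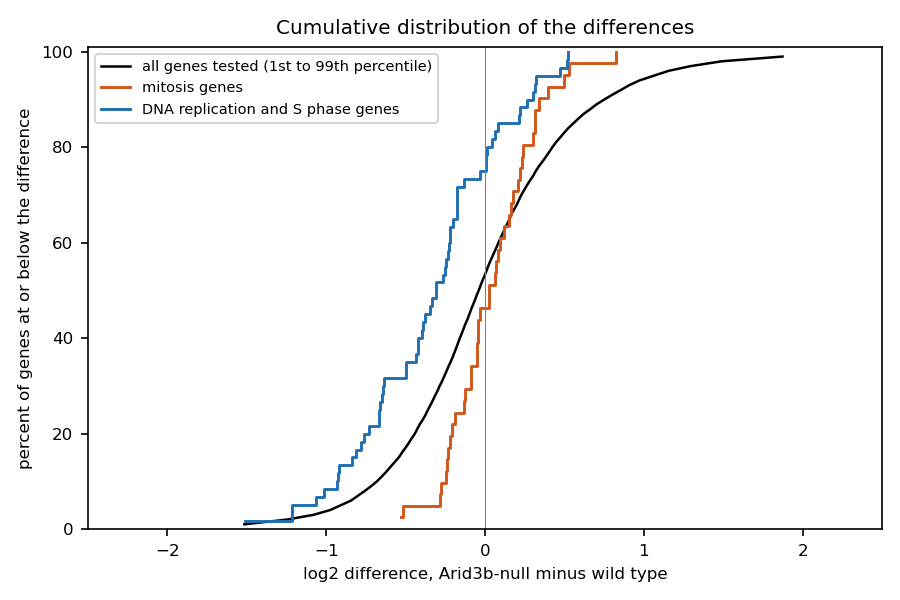
Cumulative share of genes at or below each Arid3b-null minus wild type difference (log2), for the 41 mitosis genes, the 60 replication and S phase genes and all 14906 tested genes (without the outermost percentiles). The replication curve is shifted to lower values (median -0.31). The mitosis curve is centred near 0 (median 0.03), with quartiles at -0.13 and 0.22, against -0.36 and 0.32 for all genes.

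Mitosis genes outside the 42 also had few calls, with a median below that of the 42. In 5 further lists (other G2 and mitosis regulators, other kinetochore genes, other spindle and cytokinesis genes, the anaphase-promoting complex, and condensin with cohesin) 112 of 114 genes were measured. Of these 7 (6.25%) were lower and 3 (2.68%) higher, beside 11.3% and 12.3% of all genes. Their median was -0.14, against 0.03 for the 42 and -0.04 over all genes. Over all 14906 genes tested, 7940 were below 0. Below 0 were 15 of 22 regulators, 26 of 35 kinetochore genes and 12 of 14 anaphase-promoting complex genes. The spindle and cytokinesis list had 11 of 22 below 0, and condensin with cohesin 9 of 19. Of 22 other G2 and mitosis regulators 1 was lower, Cdc25a (-0.48 ± 0.12, limma adjusted p = 0.0307), a phosphatase that also acts at S phase entry. Next by p, the repressor E2f4 and the pocket protein Rbl2 differed by -0.47 and 0.87 (limma adjusted p = 0.0742 and 0.0808). With the slide as a block Cdc25a missed the threshold (limma adjusted p = 0.0508) and Rbl2 passed it (0.0442). Of 35 other kinetochore genes 2 were lower, Cenpu (-0.79) and Zw10 (-0.50), and 2 higher, among them Kntc1 (0.41), named after its value was seen. With the slide as a block 0 of the 35 were higher (Kntc1 limma adjusted p = 0.0749). Of 22 further spindle and cytokinesis genes 1 was lower, the kinesin Kif15 (-0.78 ± 0.19, limma adjusted p = 0.0274). Kpna2 and Kif18b followed by p without passing, at -0.40 and 0.28. Of 14 anaphase-promoting complex genes 1 was lower, the subunit Anapc4 (-0.55), while Cdc26 (-0.62) and Anapc5 (-0.22) did not pass. Of 19 condensin and cohesin genes, Ncaph2 (-0.66) of condensin II and Cdca5 (sororin, -0.54) were lower and Ncapd2 of condensin I higher (0.50).

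Regulators of G1 and CDK inhibitors were read from a further list. Of 17 measured, 5 (29.4%) were lower, beside 11.3% of all genes. Among them were cyclin D1 (Ccnd1, -1.20 ± 0.13, limma adjusted p = 0.0021), E2f2 (-1.03 ± 0.14) and E2f7 (-0.69 ± 0.13). Of these 17, 1 (5.88%; 12.3% of all genes) was higher, the CDK inhibitor Cdkn1a (1.21 ± 0.25, limma adjusted p = 0.0160). It was chosen for mention after its value was seen. With the slide as a block 6 were lower and 2 higher.

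Markers of other cells were read beside these values, where 11.3% of all genes were lower and 12.3% higher. Of 14 markers of postmitotic neurons 6 (42.9%) were lower, led by Elavl3 (-1.27), Nhlh2 (-1.38) and Dcx (-0.75). The summed linear signal of the 14 was 12.9 to 17.5 times the 75th percentile in wild type and 9.06 to 10.6 in null pools. Of 12 primitive erythroid markers 2 (16.7%) were lower, near the share of all genes: Klf1 at -1.04 and Tfrc at -0.56. With the slide as a block Tfrc had a limma adjusted p = 0.0539. The summed signal of the 12 overlapped, 538 to 746 in wild type and 423 to 859 in null pools. Tal1 did not pass. None of 10 endothelial, 9 measured heart muscle and 8 surface ectoderm markers passed in limma at adjusted p under 0.05. The endothelial markers of smallest p were Cdh5 (-0.63), Robo4 (0.42) and Tie1 (0.74), and those of surface ectoderm Cdh1 (0.64), Cldn6 (-0.29) and Krt5 (-0.44). Among heart muscle markers they were Tnni1 (-1.30), Myl3 (-1.36) and Tnnc1 (-0.72), of which Myl3 passed with the slide as a block (limma adjusted p = 0.0486). Heart muscle and surface ectoderm sums were highest in wild type replicate 2 (5.52 and 50.3, against 1.47 to 2.32 and 23.9 to 24.9 in the other wild type pools, and 2.05 to 2.29 and 36.4 to 38.5 in null pools). The part of these shifts in the level of mitosis genes was not tested.

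Within the mitosis genes, those with and without the letters TTTGAA were close. The 26 with a match had a median difference of 0.08, from -0.28 to 0.82, and the 10 with a promoter and no match a median of -0.06, from -0.53 to 0.53. A match after the start was present in 16 members, of which 14 were not called and 2 rose, a share near the 12.3% of all genes. This class was not among the planned counts. These 2 were Ttk, with a match at 7 bases, and Anln, at 21 and 28 bases after the start. A link between the place of a match and the difference was not tested. Some genes with no match to TTTGAA held the variant letters TTTAAA: Birc5 and Ccnb1, 220 and 42 bases before the start, and Cenpe, 14 bases after it. The split above did not count the variant.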

How the data were processed

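One-colour Agilent arrays of 3 wild type and 3 Arid3b-null pools were analysed. The deposited intensity values are the processed signals of Agilent Feature Extraction 10.7.3.1, background-corrected per the file headers, with outlier and background flags deposited beside them as other columns. The deposited value table of the series holds log2 values with column medians of 6.76 to 6.77 that track the same arrays (r of at least 0.999); the centring behind it is not stated.

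From the intensities, log2 signal minus each array's 75th percentile was computed, control and outlier spots dropped and spots of a probe averaged. Probes were named through RefSeq accessions (26424 of 39429). A probe was kept if well above background on all 3 arrays of a group with values on at least 5 arrays, and the brightest probe stood for its gene. limma 3.58.1 in R 4.3.3 tested 14906 genes, with Benjamini-Hochberg adjustment. The number of arrays limits the precision. Arrays of 1 replicate number sat on 1 slide, per the file headers; deviations of those pairs correlated at -0.20, 0.15 and 0.42, and the main analysis had no block.

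The 42 members and all other lists were chosen with earlier results of these data known. Named were all members, the 3 genes of smallest p in each other list, Tyms, Rrm2 and Ccne1. A gene that this rule would name is not reported here, and genes outside it were named after their values were seen. Background correction, normalization, filter, probe choice, variance, array weights, slide block, threshold and each array left out were varied.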

Additional observations from a re-analysis of the deposited data

How the results depend on the processing

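The number of arrays limits precision: with 3 pools a group, Anln (1.41-fold) passed the threshold and Birc5 (1.44-fold) and Cdc25b (1.45-fold) missed it, and an exact permutation test of 3 against 3 cannot go below p = 0.1. At an adjusted p under 0.05, 30 of the 41 measured mitosis genes kept their side of the threshold in every setting that gave them a value, and 11 changed it in at least 1: Ttk, Anln, Birc5, Cdc25b, Mad2l1, Tpx2, Cdk1, Nuf2, Espl1, Kif20a and Kif2c (the last with array weights, 0.45, adjusted p = 0.0335). Genes called (3509) became 2272 with no filter on dim probes, 6655 with array weights, 1277 at adjusted p under 0.01 and 1519 to 5191 when 1 array was left out. Members called higher (2) became 1 with normexp, 0 in the deposited value table (which measured 19 of the 41 and has no value for Anln), 0 with no filter, 4 with array weights, 3 with the replicate block or at adjusted p under 0.10, 0 at adjusted p under 0.01 and 0 to 4 with 1 array left out. Members called lower (0) became 1 with normexp, 1 in the value table, 2 with the mean of probes, 4 with the probe of largest variance, 1 with an intensity trend and robust variance, 3 with array weights, 1 at adjusted p under 0.10 and 0 to 3 with 1 array left out. The median difference of the members (0.03) was 0.11 with normexp, 0.14 with quantile normalization and 0.16 over the 19 members in the value table. With median centring it was 0.0014, and with array weights -0.0034. Replication genes called lower (15) became 28 with array weights, 7 at adjusted p under 0.01 and 7 to 23 with 1 array left out. Replication genes called higher (1) became 3 with normexp, 2 with quantile normalization or at adjusted p under 0.10, 5 with array weights, 0 to 1 with 1 array left out, and 0 with median centring, with no filter, with the replicate block and at adjusted p under 0.01. The median difference of the replication genes (-0.31) was -0.18 with normexp. Tpx2 turned to -0.83 in the value table (limma adjusted p = 0.0120) and -0.77 on the probe of largest variance (0.00944). Both may rest on 1 probe, since the Tpx2 probe behind the value table was not looked up. With the replicate block, 3704 genes were called, members 3 higher (Cdc25b added) and 0 lower, and 16 replication genes lower; it changed no other call of a member. The cause of these moves was not tested, except that the settings of fewer arrays, another threshold or other probes differ by construction. Naming by RefSeq accession alone was not run apart, since the files used here hold no other gene name.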
